A study of Homo sapiens with 11 samples.

Results

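MiR-1-3p, miR-206, miR-133a-3p, miR-133b and miR-486-5p, the muscle-type miRNAs, were followed in small RNA-seq libraries of 6 human tumour cell lines. These 5 of the 2588 mature miRNAs in the tables were taken by name. The set was chosen by the CPM values of these same libraries, above all those of PANC1, so the levels below are a description without a test. The lines were A549 (lung adenocarcinoma), ES2 (ovarian clear cell adenocarcinoma), MV3 (amelanotic melanoma), PANC1 (pancreatic ductal adenocarcinoma), BE(2)C (neuroblastoma) and HepG2 (hepatoblastoma). All were parental cultures without siRNA, and none is a muscle line. There were 2 libraries per line, but PANC1 had 1 library and therefore no replicate error. Cells were harvested after 48 h, except that BE(2)C has 24 h in the protocol and 48 h in the sample characteristics. Libraries of A549, ES2, MV3 and PANC1 came from 50 ng total RNA and a NEXTflex kit, and those of BE(2)C and HepG2 were prepared by Novogene, so line and preparation cannot be told apart between these sets. Levels are CPM, the reads of a miRNA per 1000000 reads assigned to miRNAs in that library. In such bulk libraries, fewer cells with a miRNA and less of it per cell cannot be told apart.

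MiR-1, miR-206 and miR-133 are known as myomiRs, the miRNAs that are abundant in skeletal and heart muscle. They are encoded as pairs, one miR-1-type with one miR-133-type hairpin, and are switched on by myogenic transcription factors. MiR-1 and miR-206 promote differentiation of myoblasts, and miR-133 has been tied to their proliferation and to cardiac growth. MiR-486 lies within the ankyrin gene ANK1 and is enriched in muscle and red blood cells.

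The mature sequences of 4 of the 5 members were found in RefSeq (GRCh38.p14). They are shown from 5′ to 3′ because they fall into 2 seed families, with the seed (bases 2 to 8) in capitals.
hsa-miR-1-3p: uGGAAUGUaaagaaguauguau
hsa-miR-206: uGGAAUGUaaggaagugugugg
hsa-miR-133a-3p: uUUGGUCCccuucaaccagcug
hsa-miR-133b: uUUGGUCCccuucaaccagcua
Counted from the 5′ end, miR-206 departs from miR-1-3p by A11G, A17G, A21G and U22G, and 18 of 22 bases are identical. MiR-133b departs from miR-133a-3p by G22A alone, the last base, so that a read trimmed at its 3′ end cannot be placed between the 2 miRNAs. The seed GGAAUGU was held by 3 of 2370 mature miRNAs in the RefSeq table, the third being miR-613. The seed UUGGUCC was held by miR-133a-3p and miR-133b, which makes 2 of 2370.

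In GRCh38, the build called hg38 in the submitters' processing notes, the annotation places MIR1-1 at chr20:62554306-62554376 on the plus strand, in an intron of the lncRNA MIR1-1HG. MIR133A2 follows at chr20:62564912-62565013, 10535 bases downstream, in an exon of the same lncRNA. MIR1-2 (chr18:21829004-21829088) and MIR133A1 (chr18:21825698-21825785) lie 3218 bases apart on the minus strand, both in exons of the lncRNA MIR133A1HG and opposite an intron of the ubiquitin ligase gene MIB1. MIR206 (chr6:52144349-52144434, plus strand) overlaps no other annotated gene. It lies 4488 bases from MIR133B (chr6:52148923-52149041, plus strand), which is opposite an intron of the lncRNA LINCMD1. MIR486-1 (chr8:41660441-41660508, minus strand) and MIR486-2 (chr8:41660444-41660507, plus strand) overlap on opposite strands within an intron of ANK1.

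The libraries held between 1173902 and 12137452 miRNA reads. The limit set by a count of 0 was taken as 3 reads and ranged from 0.247 to 2.56 CPM over the libraries. These floors and all intervals cover counting error only. The 10 most abundant miRNAs took 96.4% and 96.1% of the reads in HepG2, against 54.2% to 81.9% in the other lines. Scaling by TMM (trimmed mean of M-values) gave HepG2 factors of 0.166 and 0.217 and the other libraries 1.02 to 1.87. Levels are CPM unless TMM is named, and TMM-scaled CPM is added where the scale turns the order of lines that a statement rests on. Over 546 miRNAs, the median log2 difference of HepG2 minus BE(2)C was −2.79 on CPM and −0.49 with TMM. The 2 BE(2)C libraries stood further apart than those of any other line, as 24.4% of 401 miRNAs of at least 10 CPM differed over 2-fold between them (0.602% to 5.59% in the other 4 lines with 2 libraries). BE(2)C values are therefore given by library.

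All 5 members together took 8214 CPM in PANC1, or 0.821% of its miRNA reads. They summed to 737 and 557 CPM in the BE(2)C libraries, 223 and 191 CPM in A549, 141 and 137 CPM in MV3, 128 and 107 CPM in HepG2 and 7.22 and 13.5 CPM in ES2. With TMM factors HepG2 summed to 773 and 491 and BE(2)C to 508 and 345 TMM-scaled CPM, so that their libraries overlapped and HepG2 was the second line on means. PANC1 was highest on both scales. Only the BE(2)C libraries held reads of all 5 members. PANC1 held 4, lacking miR-206.

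**Figure D1:**
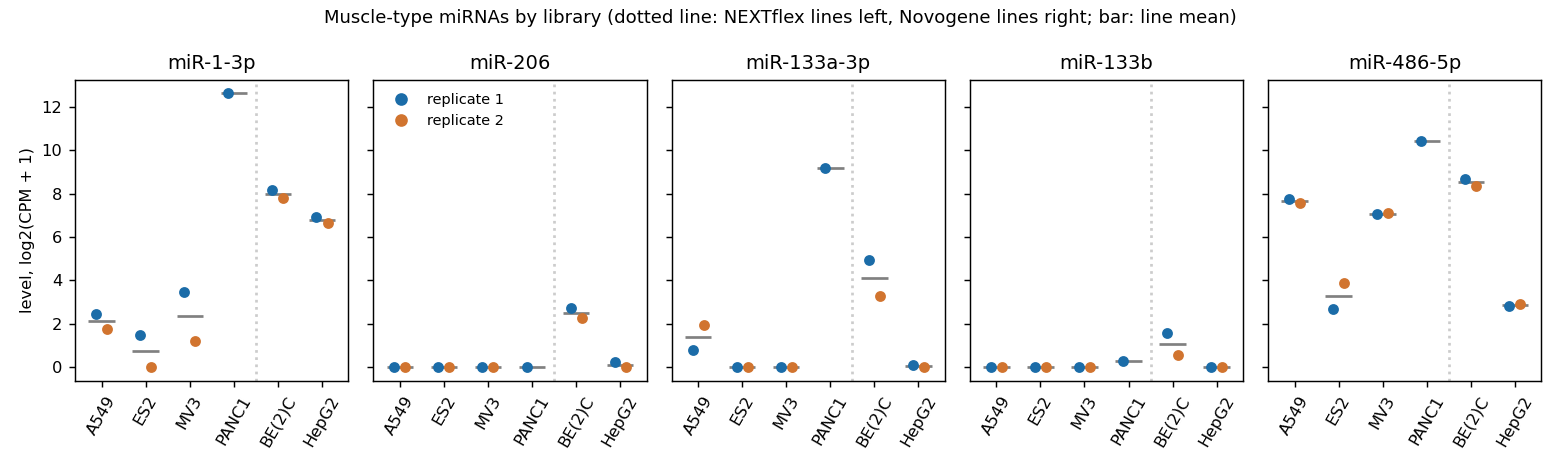
Level of each muscle-type miRNA, as log2(CPM + 1), in the 11 libraries, with blue and orange points for replicates 1 and 2 and a grey bar for the mean of the line. PANC1 is highest for miR-1-3p, miR-133a-3p and miR-486-5p, whereas BE(2)C is highest for miR-206 and miR-133b.

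MiR-1-3p, the main muscle miRNA of its seed family, was the most abundant member in PANC1, with 61146 reads. Its level there was 6273 CPM (95% Wilson interval 6224 to 6323), which made it the 26th most abundant miRNA of the library. In BE(2)C it reached 287 and 219 CPM, from 2158 and 1432 reads. HepG2 had 122 and 100.1 CPM, from 1452 and 1215 reads. The other 3 lines were near the limit of detection. MV3 had 10.2 and 1.29 CPM (12 and 2 reads), A549 had 4.49 and 2.43 CPM (12 and 5 reads), and ES2 had 1.80 and 0 CPM (3 and 0 reads). The lines therefore fell into a single very high library, 2 intermediate lines and 3 low ones.

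On line means, the order of miR-1-3p was PANC1, BE(2)C at 253 ± 48.1 CPM (SD, n = 2), HepG2 at 111 ± 15.6 CPM (SD, n = 2), MV3 at 5.76 ± 6.32 CPM (SD, n = 2), A549 at 3.46 ± 1.46 CPM (SD, n = 2) and ES2 at 0.902 ± 1.28 CPM (SD, n = 2). The libraries of MV3 and A549 overlapped, and their means changed places with TMM factors (3.15 and 3.3 TMM-scaled CPM). Those of ES2, with 3 reads, also overlapped MV3. PANC1 was 24.8-fold above BE(2)C and 56.4-fold above HepG2. The fold over MV3 rested on few reads and was 614 over replicate 1 and 4860 over replicate 2. Over A549 it was 1396 and 2585. Against the 3 reads of ES2 the ratio of pooled reads, scaled to the depth of the lines, was 8277, with an exact 95% counting interval of 2832 to 40138.

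The place of HepG2 turned with the scale. With TMM factors, HepG2 had 598 ± 194 (SD, n = 2) and BE(2)C 167 ± 44.1 (SD, n = 2) TMM-scaled CPM of miR-1-3p, so that HepG2 passed BE(2)C without overlap. PANC1 remained the highest, at 3555, but its distance to the next line was 5.94-fold instead of 24.8-fold. The log2 difference of HepG2 minus BE(2)C for miR-1-3p was −1.17 on CPM and 1.82 with TMM, above the median difference between these 2 lines. TMM divides all miRNAs of a library by a single factor, so the median moved along with miR-1-3p. The scales are therefore not separate support for this.

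**Figure D2:**
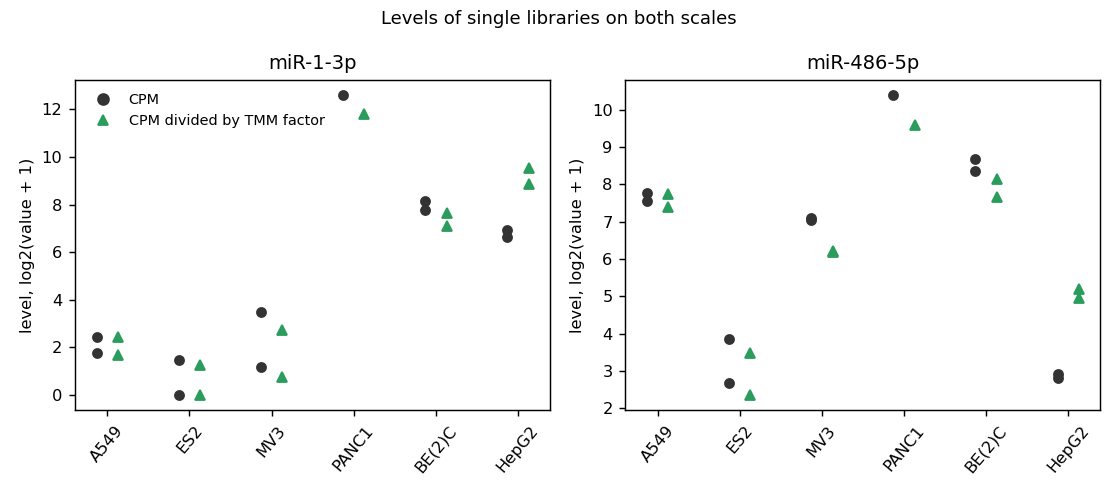
Levels of miR-1-3p (left) and miR-486-5p (right) in single libraries, as log2(value + 1), on CPM (black circles) and on CPM divided by the TMM factor (green triangles). PANC1 is highest on both scales, whereas HepG2 lies below BE(2)C for miR-1-3p on CPM and above it with TMM.

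MiR-206, the skeletal-muscle-specific member of the miR-1 seed family, had a different pattern from miR-1-3p. It was read in BE(2)C at 5.72 and 3.82 CPM (43 and 25 reads) and in HepG2 at 0.168 and 0 CPM (2 and 0 reads). PANC1 had 0 reads, which allows up to 0.308 CPM, and the 6 libraries of A549, ES2 and MV3 had 0 reads as well. BE(2)C was at least 15.5-fold higher than PANC1 at the floor of 3 reads. As the floors of A549, ES2 and MV3 are higher, the bounds there were at least 7.52-fold, 6.29-fold and 4.33-fold. Against the 2 reads of HepG2 the ratio of pooled reads was 58.1, with an exact 95% counting interval of 15.5 to 489. On line means with TMM factors, a different measure, it was 6.23, outside that interval.

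Set against its seed relative, miR-206 made up 0 of 61146 reads of both miRNAs in PANC1, which allows a share of up to 0.00491%. In BE(2)C its share was 1.95% (95% Wilson interval 1.45% to 2.62%) and 1.72% (1.16% to 2.52%). HepG2 replicate 1 had 0.138% (0.0377% to 0.50%), and HepG2 replicate 2 had 0 of 1215 reads, which allows up to 0.247%. The interval of each BE(2)C library lay above those of PANC1 and of both HepG2 libraries. MiR-613, the further holder of this seed, had 0 reads in all 11 libraries.

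MiR-133a-3p, the usual partner of miR-1 in muscle, had 5696 reads and 584 CPM in PANC1 (95% Wilson interval 569 to 599.8) and ranked 91st there. BE(2)C followed with 29.5 and 8.87 CPM from 222 and 58 reads. A549 had 0.749 and 2.91 CPM from 2 and 6 reads. HepG2, intermediate for miR-1-3p, had 1 read in replicate 1 (0.0842 CPM) and 0 reads in replicate 2. ES2 and MV3 had 0 reads in both libraries. PANC1 thus stood above every other library, and both BE(2)C libraries stood above A549.

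PANC1 exceeded BE(2)C by 30.4-fold, on line means of 584 and 19.2 ± 14.6 CPM (SD, n = 2 for BE(2)C), and by 19.8-fold and 65.9-fold for its replicates 1 and 2 alone. The A549 libraries, with 2 and 6 reads, gave 780-fold and 201-fold. It was at least 771-fold higher than ES2 and at least 530-fold higher than MV3, taking 3 reads over the libraries of the line as the floor. Against the 1 read in HepG2 the ratio of pooled reads was 14036, with an exact 95% counting interval of 2518 to 554498. On line means with TMM factors, a different measure, it was 1308, outside that interval. The order of lines was the same with TMM factors, with PANC1 at 331 and BE(2)C at 12.9 TMM-scaled CPM.

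Because miR-1 and miR-133a are transcribed from shared clusters, their proportion was compared between the libraries with at least 1000 reads of both together. MiR-133a-3p made up 8.52% of both in PANC1 (95% Wilson interval 8.31% to 8.74%), that is 10.7 reads of miR-1-3p for 1 of miR-133a-3p. BE(2)C replicate 1 had 9.33% (8.22% to 10.6%), which overlapped PANC1, while BE(2)C replicate 2 had 3.89% (3.02% to 5.00%) and did not. HepG2 replicate 1 had 0.0688% (0.0122% to 0.389%) and HepG2 replicate 2 had 0 of 1215 reads, which allows up to 0.247%. The HepG2 shares lay below those of PANC1 and of both BE(2)C libraries, beyond counting error. HepG2 shared its preparation with BE(2)C, and the cause of their difference was not tested.

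**Figure D3:**
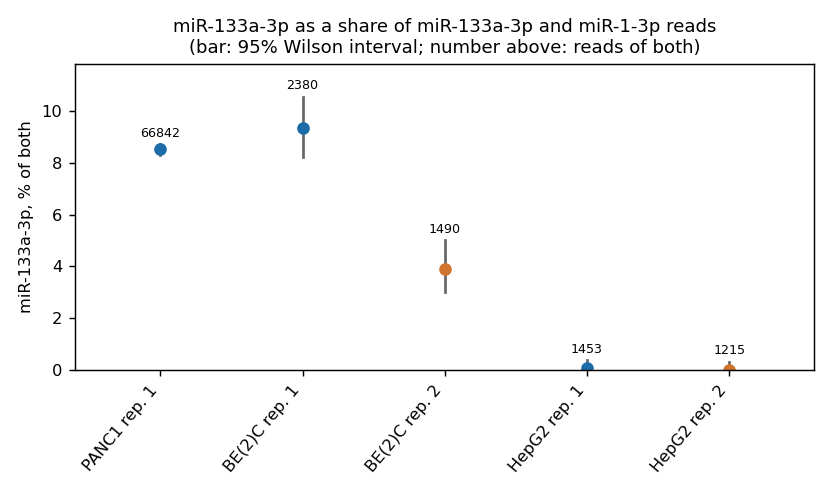
MiR-133a-3p as a percentage of miR-133a-3p and miR-1-3p reads, with bars for 95% Wilson intervals and the number of reads of both above each point. PANC1 and BE(2)C replicate 1 overlap near 8.52% and 9.33%, BE(2)C replicate 2 is lower at 3.89%, and both HepG2 libraries are near 0.

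MiR-133b, which shares its cluster with miR-206, was the rarest member, with 20 reads in all 11 libraries. BE(2)C had 1.99 and 0.459 CPM (15 and 3 reads) and PANC1 had 0.205 CPM (2 reads). The other 8 libraries had 0 reads. The ratio of pooled reads of BE(2)C to PANC1 was 6.24, with an exact 95% counting interval of 1.49 to 55.4. MiR-133b and miR-133a-3p differ only at the last base, and whether some miR-133b reads came from miR-133a-3p was not tested. Of the reads of miR-133b and miR-133a-3p together, miR-133b made up 2 of 5698 in PANC1 or 0.0351% (95% Wilson interval 0.00963% to 0.128%). It made up 6.33% (3.87% to 10.2%) and 4.92% (1.69% to 13.5%) in the BE(2)C libraries. Both members of the chromosome 6 cluster were thus at or under the floor in PANC1, where both members of the chromosome 18 and 20 clusters were highest.

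The tables hold 1 row for each genomic copy, and rows of one miRNA were summed. In PANC1, 50.7% (95% Wilson interval 50.3% to 51.1%) of the miR-1-3p reads stood on the chromosome 18 row and the rest on the chromosome 20 row. In BE(2)C and HepG2 it was between 49.2% and 51.5%. MiR-133a-3p had 50.3% (49.0% to 51.6%) on chromosome 18 in PANC1, and 41.4% (35.2% to 48.0%) and 44.8% (32.7% to 57.5%) in BE(2)C. The mature sequence of each is the same at both loci, so these rows do not tell which locus was transcribed.

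The opposite arms of the miR-1 and miR-133a hairpins were almost absent. MiR-1-5p had 0 reads in all 11 libraries, against 61146 reads of the 3p arm in PANC1, which allows a share of up to 0.00491%. MiR-133a-5p had 1 read in all libraries together, in BE(2)C replicate 2. In PANC1 it had 0 of 5696 reads of both arms, which allows up to 0.0527%.

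MiR-486-5p, the muscle and erythroid member, was read in all 11 libraries. PANC1 had 1356 CPM (95% Wilson interval 1333 to 1379) from 13213 reads, rank 62 in the library. BE(2)C had 412 and 325 CPM, A549 218 and 186 CPM, and MV3 131 and 136 CPM. ES2 had 5.41 and 13.5 CPM and HepG2 5.98 and 6.51 CPM. Line means were 369 ± 61.8 CPM in BE(2)C, 202 ± 22.4 CPM in A549, 134 ± 3.54 CPM in MV3, 9.46 ± 5.72 CPM in ES2 and 6.24 ± 0.377 CPM in HepG2 (each SD, n = 2). Libraries of neighbouring lines in this order did not overlap, except those of ES2 and HepG2.

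Over BE(2)C, A549 and MV3, the lead of PANC1 was smaller for miR-486-5p than for miR-1-3p and miR-133a-3p, at 3.68-fold, 6.72-fold and 10.1-fold. It was 251-fold and 100.4-fold over the ES2 libraries. Over HepG2 it was 217-fold, larger than the 56.4-fold of miR-1-3p. With TMM factors the lead over HepG2 became 23.3-fold, against 5.94-fold for miR-1-3p. With TMM factors PANC1 had 768, BE(2)C 243 and A549 191 TMM-scaled CPM, and the libraries of the latter pair overlapped. HepG2 rose to 33.0 and passed ES2 at 7.15, without overlap. A549 and MV3 lay clearly above the floor for miR-486-5p while their miR-1-3p levels rested on 17 and 14 reads per line. HepG2 was the reverse, with 111 CPM of miR-1-3p and 6.24 CPM of miR-486-5p.

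MiR-486-3p, the opposite arm, was also highest in PANC1, at 171 CPM from 1664 reads. It had 25.1 and 16.0 CPM in A549, 17.9 and 29.7 CPM in MV3, 4.12 and 5.05 CPM in BE(2)C and 0.673 and 1.40 CPM in HepG2. ES2 had 0 reads. As a share of the reads of both arms it was 11.2% in PANC1 (95% Wilson interval 10.7% to 11.7%), 10.3% and 7.93% in A549, 12% and 17.9% in MV3 and 10.1% and 17.7% in HepG2. The share in BE(2)C was 0.989% (0.698% to 1.40%) and 1.53% (1.09% to 2.14%), and these intervals lay below those of PANC1 and of each A549, MV3 and HepG2 library. In ES2, with 9 and 31 reads of both arms, a lower share was not detectable at this depth. BE(2)C was thus second for the 5p arm and below A549 and MV3 for the 3p arm. With TMM factors it was also below HepG2 for the 3p arm, at 2.98 against 5.25 TMM-scaled CPM. HepG2, from the same preparation as BE(2)C, had 79 and 96 reads of both arms. The cause of the low share in BE(2)C was not tested.

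**Figure D4:**
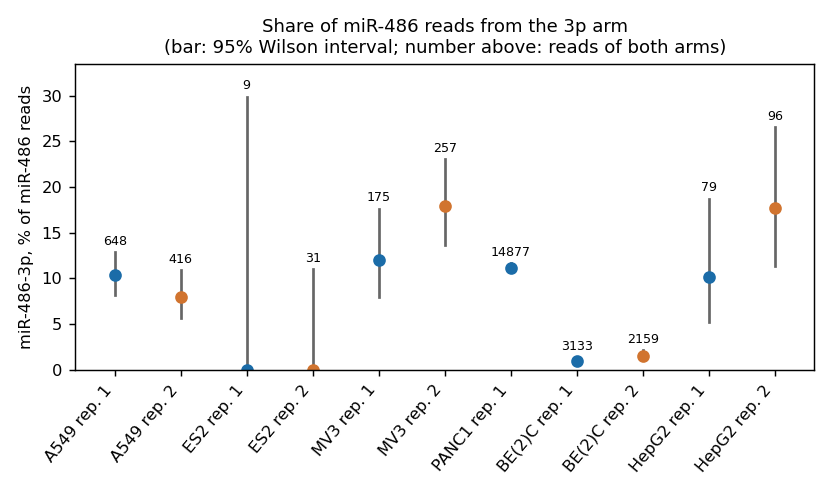
MiR-486-3p as a percentage of all miR-486 reads in each library, with bars for 95% Wilson intervals and the number of reads of both arms above each point. Both BE(2)C libraries lie near 1%, at 0.989% and 1.53%, whereas PANC1, A549, MV3 and HepG2 lie between 7.93% and 17.9%.

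The 2 MIR486 hairpins are counted on separate rows as well. In PANC1, 49.3% of the miR-486-5p reads stood on the first row (95% Wilson interval 48.5% to 50.2%). For miR-486-3p the first row held 57.3% in PANC1 (54.9% to 59.7%), and 71.0% (53.4% to 83.9%) and 75.8% (59.0% to 87.2%) in BE(2)C. The 5p reads of PANC1 were thus divided evenly within counting error and its 3p reads were not. In BE(2)C the first row held 47.9% (46.2% to 49.7%) and 49.0% (46.9% to 51.1%) of the miR-486-5p reads. How reads matching both hairpins were counted is not given, so which hairpin the reads came from was not tested.

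The 2 BE(2)C libraries differed for some members more than for others. MiR-133a-3p was 3.33 times as high in replicate 1 as in replicate 2 (exact 95% counting interval 2.48 to 4.52), and miR-133b 4.35 times (1.23 to 23.4). MiR-1-3p was 1.31 times (1.23 to 1.40), miR-486-5p 1.27 times (1.20 to 1.34) and miR-206 1.5 times (0.893 to 2.56) as high. All 5 ratios were above 1, whereas over 401 miRNAs the median log2 ratio was −0.37, with 20 miRNAs over 2-fold higher in replicate 1 and 78 in replicate 2. The erythroid miR-451a, at 299 and 46.0 CPM, was 6.51 times (5.77 to 7.36) and the hepatocyte miR-122-5p, at 823 and 5.96 CPM, 138 times (101 to 194) as high in replicate 1. The part of these differences in the BE(2)C levels of the members was not tested. Taking replicate 2 alone, BE(2)C was still the line next to PANC1 for miR-1-3p, miR-133a-3p and miR-486-5p on CPM.

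**Figure D5:**
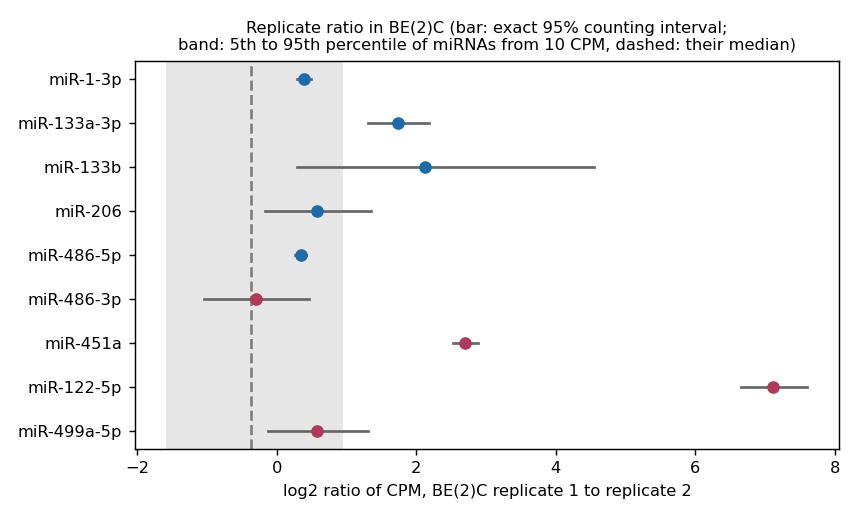
Log2 ratio of CPM in BE(2)C replicate 1 to replicate 2 for the members (blue) and for other named miRNAs (red), with exact 95% counting intervals. The grey band spans the 5th to 95th percentile of 401 miRNAs of at least 10 CPM and the dashed line is their median of −0.37. Both used CPM + 1, and the points did not. The points of miR-133a-3p, miR-133b, miR-451a and miR-122-5p lie beyond the band, but the interval of miR-133b (15 and 3 reads) reaches into it.

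Markers of other cell types were read beside the members. Of the 3 cardiac and slow muscle markers, miR-208a-3p and miR-208b-3p, which come from introns of the cardiac and slow myosin genes, had 0 reads in all 11 libraries. MiR-499a-5p, from the myosin gene MYH7B, ranged from 0 to 7.10 CPM and had 0.410 CPM (4 reads) in PANC1, where miR-1-3p was at 6273 CPM. Its range was 4.28 to 6.38 CPM in BE(2)C and 1.26 to 2.55 CPM in HepG2, but HepG2 was the higher with TMM factors (9.68 against 3.53 TMM-scaled CPM). The other arms miR-208a-5p, miR-208b-5p and miR-499a-3p had 0 reads throughout. MiR-499b-3p had 3 reads and miR-499b-5p 5 reads in all libraries together.

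Of the 3 erythroid markers, 0 had reads in PANC1, in which miR-486-5p was highest, or in MV3. The summed level of the list was 46.0 to 299.6 CPM in BE(2)C, with reads of 2 of 3 markers, and 3.46 to 4.12 CPM in HepG2, with 1 of 3. It was at most 0.971 CPM in A549 and 0.601 CPM in ES2. MiR-144-3p, which shares a cluster with miR-451a, had 0 reads in all libraries and miR-144-5p had 1 read. The 2 hepatocyte markers, miR-122-5p and miR-122-3p, summed to 64.0 and 50.0 CPM in HepG2, a liver-derived line, to 35.7 CPM in PANC1 and to 824.8 and 5.96 CPM in BE(2)C. The list summed to 30.98 to 45.1 CPM in MV3, 3.61 to 24.8 CPM in ES2 and 1.94 to 4.49 CPM in A549. Their part in the levels of the members was not tested.

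The miRNAs whose log2(CPM + 1) was most like that of each member over the 11 libraries were ranked by Pearson r. Candidates were 542 miRNAs that averaged 10 CPM or more in some line. The points share libraries, preparation and depth, so r is a description only. For miR-1-3p these were miR-363-3p (r = 0.889), miR-187-3p (r = 0.822) and miR-500b-3p (r = 0.816). For miR-133a-3p they were miR-433-5p (r = 0.925), miR-187-3p (r = 0.904) and miR-501-3p (r = 0.894). MiR-363-3p, miR-187-3p, miR-500b-3p and miR-433-5p reached that minimum only in PANC1, where both members were highest. Their likeness is therefore in part built in by the filter. MiR-187-3p, in both lists, had 20.01 CPM in PANC1, 0.761 CPM in BE(2)C, 0.418 CPM in HepG2 and 0 CPM in the other 3 lines.

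For miR-486-5p the most alike were miR-487b-3p (r = 0.952), miR-485-3p (r = 0.943) and miR-369-3p (r = 0.937), which are encoded in the imprinted DLK1-DIO3 cluster, as is the miR-433-5p named for miR-133a-3p. MiR-487b-3p had 2009 CPM in PANC1, 1279 CPM in BE(2)C, 681 CPM in A549, 31.2 CPM in MV3, 3.70 CPM in ES2 and 0.0421 CPM in HepG2. On CPM this was the order of lines of miR-486-5p, whose ES2 and HepG2 libraries overlapped. With TMM factors HepG2 passed ES2 for miR-486-5p, and miR-487b-3p was not taken on that scale. None of the 3 most like miR-486-5p was among those named for miR-1-3p or miR-133a-3p. Among the members, r was 0.792 between miR-1-3p and miR-133a-3p, 0.744 between miR-133a-3p and miR-486-5p and 0.423 between miR-1-3p and miR-486-5p.

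To set the members beside other miRNAs of muscle development, 22 miRNAs with a described role in myoblast proliferation or differentiation were examined. Of these, 20 averaged 10 CPM or more in some line and were tested for a difference among lines by limma's moderated F test with Benjamini-Hochberg adjustment over all miRNAs tested. Across the 6 lines all 20 passed, beside 99.3% of all 546 miRNAs tested, so the count is near the background. Across the 4 NEXTflex lines, which share a preparation, 18 of 20 passed, beside 85.4% of 453. As miR-675-5p reached the minimum level only through the PANC1 library, its call was fixed by that filter. Across the 4 NEXTflex lines miR-214-3p likewise reached it only through MV3 (39.0 CPM). Among miRNAs that reached the minimum in more than 1 line, 19 of 19 of the list passed across the 6 lines, beside 99.5% of 409. Across the 4 NEXTflex lines 16 of 18 passed, beside 87.5% of 351. The 2 that did not pass were miR-29c-3p (limma, adjusted p = 0.0536) and miR-195-5p (adjusted p = 0.279). The median log2 span between the highest and the lowest line was 7.38 for the list and 5.13 for all miRNAs tested across 6 lines, and 2.44 and 3.12 across the 4 NEXTflex lines. These spans are on log2(CPM + 1), which shortens those of weakly read miRNAs, and were not taken with TMM factors. Across the 6 lines HepG2, the line most moved by TMM, was the lowest for most of the list. In these fits PANC1 was assumed to vary like the other lines.

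On CPM, PANC1 was the highest line for 3 of the 20 myogenesis miRNAs, beside 19.2% of all 546 tested, and BE(2)C for 4, beside 44.5%. ES2 was highest for 8, beside 10.8%, MV3 for 3, beside 17.2%, A549 for 2, beside 4.76%, and HepG2 for 0, beside 3.48%. With TMM factors the counts were 2 for PANC1, beside 13.7% of all 546, 2 for BE(2)C, beside 35.3%, and 9 for ES2, beside 14.5%. On that scale MV3 had 2, beside 9.34%, A549 3, beside 7.51%, and HepG2 2, beside 19.6%. The 3 highest in PANC1 on CPM were weakly read. MiR-675-5p, from the imprinted lncRNA H19 that is abundant in fetal muscle, had 14.4 CPM (140 reads) in PANC1 and 0 reads in the other 10 libraries. MiR-195-5p and miR-497-5p, which share a cluster and restrain the cell cycle, had 25.5 and 17.2 CPM in PANC1, but with TMM factors miR-195-5p was higher in A549 (15.5 against 14.5 TMM-scaled CPM). MiR-489-3p, tied to quiescence of muscle stem cells, and miR-675-3p had 0 reads in every library.

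Among the abundant members of the list, miR-155-5p, a repressor of myoblast differentiation, had 7812 and 8043 CPM in ES2, 864 CPM in PANC1 and 17.7 and 24.8 CPM in BE(2)C. MiR-221-3p and miR-222-3p, which target the cell cycle inhibitor p27, averaged 24603 and 56476 CPM in ES2, 5379 and 7784 CPM in PANC1 and 4.88 and 5.27 CPM in BE(2)C. On CPM these 3 were among the 8 list miRNAs highest in ES2. The others were miR-29a-3p, miR-29b-3p, miR-125b-5p, miR-424-5p and miR-503-5p. MiR-378a-3p, which promotes myoblast differentiation by repressing the MyoD inhibitor MyoR, had 2969 CPM in BE(2)C, 389 CPM in PANC1 and 604 CPM in HepG2. The highest line was BE(2)C on CPM and HepG2 with TMM factors (3238 against 1946 TMM-scaled CPM). MiR-214-3p, from the transcript DNM3OS, averaged 287 CPM in BE(2)C and had 0 reads in PANC1.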

How the data were processed

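Each line had 1 table of 2813 rows, in which every genomic copy of a miRNA has its own row. The PANC1 table deposited by the authors held CPM, and the authors' remaining 5 tables held a scaled signal, namely CPM divided by a factor set within each table. The submitters' processing notes list cutadapt 1.14, Bowtie2 2.3.2, SAMtools 1.5, featureCounts 1.5.3, edgeR 3.30.3 and hg38. How reads matching several precursors were counted is not given in the sources used here. All nonzero values (100% per library, relative tolerance 0.001) were whole multiples of a single read. Whole reads were thus recovered, rows of one miRNA summed and libraries rescaled to 1000000. The design had assumed CPM in all tables.

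Groups came from the line labels. By the methods of the study these were 2 biological replicates per line (1 for PANC1), and sequencer and read length changed together with the preparation. MiRNAs that averaged 10 CPM or more in some line were fitted on log2(CPM + 1), which understates folds of low miRNAs, with limma 3.58.1 (R 4.3.3), line as the only factor, eBayes with trend and a threshold of 0.05. The test was checked on simulated reads. Alternatives used edgeR 4.0.16, DESeq2 1.42.0, TMM factors, the deposited values, pseudocounts of 0.5 and 5, filters, the replicate block and each library left out. Named miRNAs were the members, other arms and relatives, the myogenesis and marker lists and the 3 most alike by Pearson r for each member averaging 10 CPM or more in some line. Members and lists were chosen with earlier results of these data known.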

Additional observations from a re-analysis of the deposited data

How the results depend on the processing

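PANC1 had 1 library, preparation and line cannot be told apart across the 6 lines, and miR-133b and miR-206 rested on 20 and 70 reads. Gaps are log2(CPM + 1) differences between the highest and the next line on CPM, and of 35 alternatives to them 24 moved by less than the spread of a single library, 11 by more and 0 reversed. The gap of BE(2)C over PANC1 for miR-133b (0.79) became 1.13 and 0.25 with pseudocounts of 0.5 and 5. That of BE(2)C over HepG2 for miR-206 (2.40) became 3.16 and 0.94, and 1.52 with TMM factors. Without 1 library each, the gap of PANC1 over BE(2)C was 4.45 to 4.83 for miR-1-3p, 4.26 to 5.89 for miR-133a-3p and 1.71 to 2.06 for miR-486-5p, while the BE(2)C gap was 0.28 to 1.31 for miR-133b and 2.16 to 2.64 for miR-206.

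Gaps between neighbouring lines below the highest were added after seeing the data. Only 6 were taken, without those of low means such as MV3 over A549 for miR-1-3p, and 3 of 54 alternatives reversed them. With TMM factors, BE(2)C over HepG2 became −1.82 for miR-1-3p and ES2 over HepG2 became −2.16 for miR-486-5p. The latter gap was 0.41 on CPM, and −0.17 without ES2 replicate 2 to 1.00 without ES2 replicate 1. The TMM count of highest lines and the restriction to miRNAs above the minimum in more than 1 line were also added after seeing the data. For the myogenesis list, the other 34 alternatives all kept the count within 1.5 times, at 16 to 20 across the 6 lines and 15 to 19 across the 4 NEXTflex lines. Without a filter on level 837 of 1608 miRNAs passed across the 6 lines in place of 542 of 546, and 313 of 314 with a minimum of 100 CPM. The 4 NEXTflex lines gave 427 of 1181 and 230 of 235 in place of 387 of 453. Replicate numbers did not pair the samples, as 1 of 10 correlations of same-numbered deviations was over 0.1 (range −0.0531 to 0.109). With the replicate block the list gave 20 calls across 6 lines and 18 across the 4 NEXTflex lines, as without it.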
